A study of Mus musculus with 9 samples.

Results

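Complement is the blood and tissue protein cascade of innate immunity, and 9 of its genes were followed through mouse oviduct and oviduct tumors: C1qa, C1qb and C1qc, the subunits of the recognition protein C1q; C2, C3, C4b and Cfb, whose proteins build the convertases; Serping1, the C1 inhibitor; and C3ar1, the receptor of the fragment C3a. They were chosen by name, with earlier results of these data known. All 9 were found among the 19435 genes of the expression table. The tumors were Dicer1ko/D1693N (4 libraries, labelled primary tumor). Their controls were normal oviducts, of which oviducts 1 to 3 were Dicer1+/D1693N and oviducts 4 and 5 were Dicer1+/+. Dicer1 encodes the nuclease that cuts microRNA precursors, and D1693N changes a residue of its RNase IIIb domain, so the tumors and oviducts 1 to 3 share that allele. All tissue was untreated. What removed the other allele in the tumors, the ages, and whether each library came from a separate animal are not given in the sources used here, so p-values measure the spread between these libraries.

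As background, C1q binds antibody complexes, dying cells and some microbial surfaces. Its attached proteases C1r and C1s then cleave C4 and C2 to form the convertase of the classical pathway, which cleaves C3. In the alternative pathway factor B takes the place of C2 on deposited C3b, is cut by factor D, and enlarges the response. Liver is the main source of most circulating components, whereas C1q is made largely by macrophages and dendritic cells. In the rodent uterus C3 is known as a secreted epithelial protein induced by estrogen.

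The 4 tumor libraries held 8732190 to 11267144 reads and the 5 oviduct libraries 8504993 to 12526078. Values below are normalized counts, meaning reads scaled by the size factor of their library. Pairs of tumors correlated at 0.864 to 0.929 over all genes and pairs of oviducts at 0.968 to 0.986, so the tumors were the more varied group. Dicer1 had 576 to 1379 normalized counts in tumors and 904 to 1237 in oviducts, and counts per gene do not separate its alleles. The 10 listed ciliated-cell markers summed to 187 to 879 in tumors and 24482 to 39612 in oviducts. Of 10 secretory-cell markers 2 were called higher and 3 lower; Ovgp1, the oviduct glycoprotein, had 111.5 to 11678 in tumors and 78144 to 150619 in oviducts, while the other 9 summed to 11653 to 32810.5 in tumors and 22208 to 28126 in oviducts, where the groups overlapped. Tumor 4 stood apart in 10 fat-cell markers, which summed to 95279 in it, to 214 to 408 in the other tumors and to 2615 to 17302 in oviducts. Tumor 3 had 3053 genes without a read, against 1369 to 1945 in the other tumors and 595 to 877 in oviducts. Tumor 1 stood apart in 7 red-cell markers, at 49670 against 1032 to 1568 in the other tumors and 891 to 1705 in oviducts. In bulk tissue, fewer cells of a type and less RNA per cell cannot be told apart.

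Promoters in the RefSeq table (GRCm38.p6) matched 4 of the 9 genes, and they are shown because the C1q genes moved together while C3 followed another pattern. Each runs 5′ to 3′ on the minus strand from 250 bases before the transcription start to 50 bases after its first base. Capitals mark matches, on either strand, to 7 motifs: the PU.1 core GAGGAA, the Maf half-site TGCTGA, AP-1 TGANTCA, C/EBP TTGCNNAA, the interferon-stimulated response element, the STAT gamma site TTCNNNGAA and the NF-kB consensus.
C1qb, chr4:136886151-136886450: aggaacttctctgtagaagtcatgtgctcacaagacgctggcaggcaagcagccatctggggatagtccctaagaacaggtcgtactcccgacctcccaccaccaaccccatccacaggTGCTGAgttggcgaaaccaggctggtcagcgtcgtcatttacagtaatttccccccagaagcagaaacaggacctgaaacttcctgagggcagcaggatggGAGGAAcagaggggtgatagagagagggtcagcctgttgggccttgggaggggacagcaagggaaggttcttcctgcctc
C1qc, chr4:136892865-136893164: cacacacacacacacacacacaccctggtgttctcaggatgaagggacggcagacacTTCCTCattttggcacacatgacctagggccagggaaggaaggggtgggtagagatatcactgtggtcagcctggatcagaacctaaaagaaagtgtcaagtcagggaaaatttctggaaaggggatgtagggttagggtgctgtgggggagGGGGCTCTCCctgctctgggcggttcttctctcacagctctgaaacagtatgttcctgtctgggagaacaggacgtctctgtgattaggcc
C3, chr17:57228087-57228386: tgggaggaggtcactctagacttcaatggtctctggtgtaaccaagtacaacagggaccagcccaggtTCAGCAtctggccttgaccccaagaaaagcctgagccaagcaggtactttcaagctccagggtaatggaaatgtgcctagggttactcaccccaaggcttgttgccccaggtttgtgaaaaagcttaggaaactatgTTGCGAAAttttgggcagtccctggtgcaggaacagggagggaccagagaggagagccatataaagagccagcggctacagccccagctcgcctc
C3ar1, chr6:122856108-122856407: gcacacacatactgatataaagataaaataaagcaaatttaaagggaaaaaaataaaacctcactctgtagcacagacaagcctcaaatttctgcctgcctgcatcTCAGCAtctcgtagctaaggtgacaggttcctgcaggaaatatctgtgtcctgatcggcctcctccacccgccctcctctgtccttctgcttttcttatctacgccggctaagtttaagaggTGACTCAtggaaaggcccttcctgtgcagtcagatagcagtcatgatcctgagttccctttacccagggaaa
The C1qb and C1qc windows each held a PU.1 core, which 28.3% of the 32851 promoters in the table also held. The Maf half-site was in the C1qb, C3 and C3ar1 windows and in 19.5% of all promoters. The C1qc window held the NF-kB consensus (8.46% of all promoters), the C3 window a C/EBP match (10.8%) and the C3ar1 window an AP-1 match (7.81%). The interferon-stimulated response element (3.44%) and the STAT gamma site (8.30%) had no match in these windows. A match describes letters only and was not tested as a binding site.

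The C1q genes were higher in tumors than in oviducts, by about the same amount each. C1qa, C1qb and C1qc encode the A, B and C chains that assemble into C1q, and they lie side by side on chromosome 4 between positions 136880129 and 136898803 (GRCm38, minus strand). C1qa had 2168, 3785, 606 and 5075 normalized counts in tumors 1 to 4, against 442, 522, 814, 670.5 and 632 in oviducts 1 to 5. Tumors 1, 2 and 4 lay above every oviduct, and tumor 3 lay among the oviducts. C1qb had 2465, 3949.5, 683 and 4696 in the tumors, against 535, 564, 775, 663 and 544 in the oviducts. C1qc had 1794, 2401, 526 and 3841 in the tumors, against 350.5, 427, 532, 561 and 372 in the oviducts. The order of the tumors was the same for the 3 chains, and tumor 3 again overlapped the oviducts.

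C1qa averaged 2908 ± 1940 in tumors and 616 ± 143 in oviducts (SD, n = 4 and n = 5). C1qb averaged 2948 ± 1770 in tumors and 616 ± 103 in oviducts, and C1qc 2140 ± 1380 in tumors and 448.5 ± 94.5 in oviducts. On the deposited log2 scale C1qa rose by 1.86 ± 0.51 (SE, limma, adjusted p = 0.0189). C1qb rose by 1.92 ± 0.47 (limma, adjusted p = 0.0107) and C1qc by 1.92 ± 0.46 (limma, adjusted p = 0.0102). Calls needed both an adjusted p under 0.05 and a change of 1 or more log2 units. These 3 were the genes called higher among the 9, where 6.53% of all genes were called higher, and none was called lower, where 12.1% of all genes were. At an unadjusted p under 0.05, 4 of the 9 passed, where 42.1% of all genes did, and limma-voom on the recovered reads called 3. With any 1 library left out C1qb changed by 1.60 to 2.51 and C1qc by 1.54 to 2.48, both called each time and highest without tumor 3, the library among the oviducts. Without tumor 2 the C1qa call was lost (1.62, limma, adjusted p = 0.0567).

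**Figure D1:**
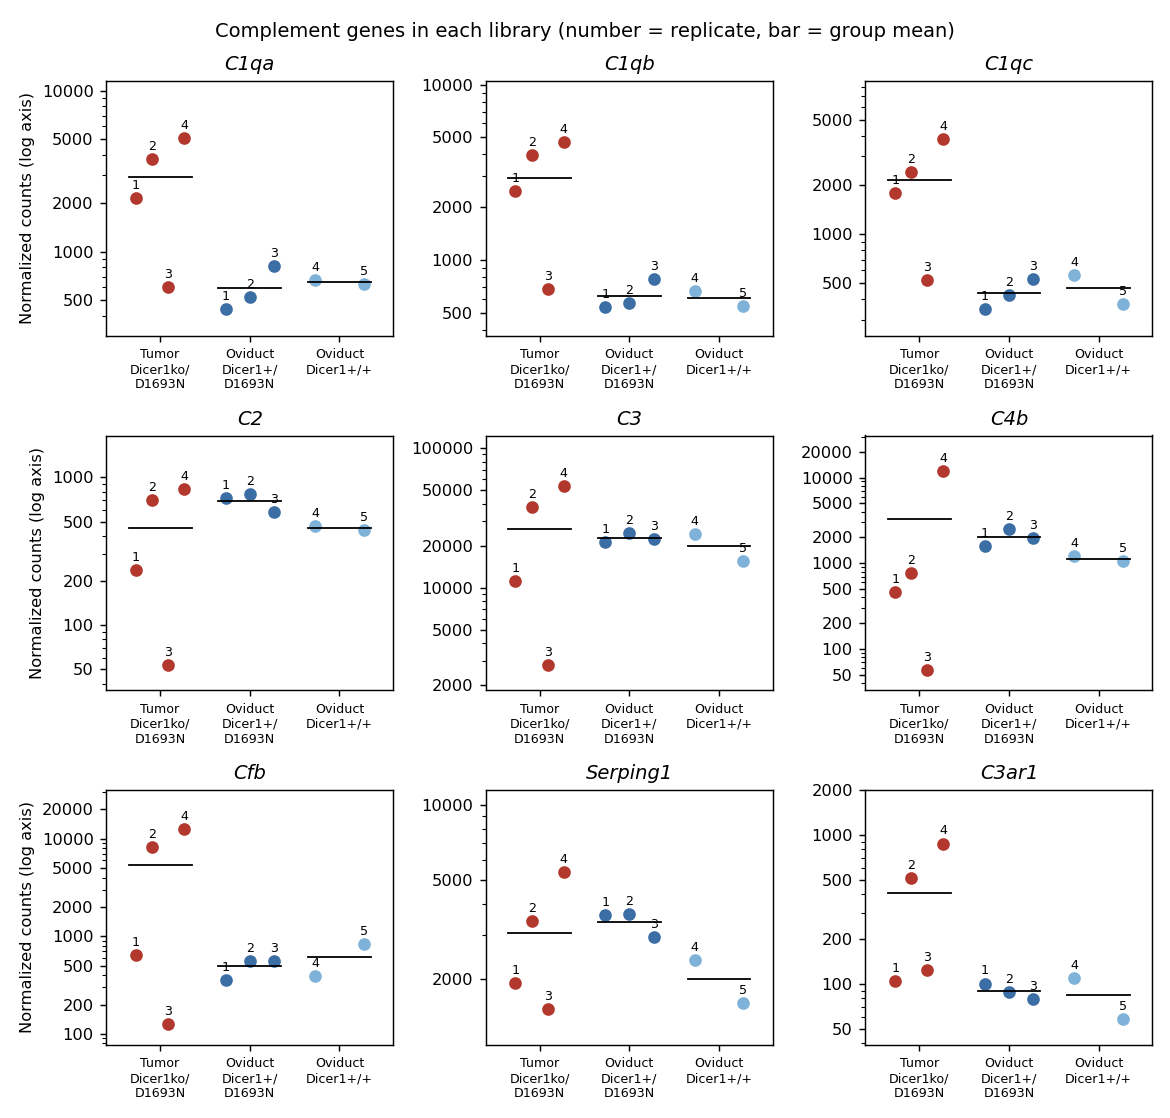
Normalized counts (log axis) of the 9 complement genes in every library, with tumors on the left, Dicer1+/D1693N oviducts in the middle and Dicer1+/+ oviducts on the right; numbers are replicates and bars are group means. In the panels of C1qa, C1qb and C1qc tumors 1, 2 and 4 lie above every oviduct and tumor 3 lies among them, and in the panels of C4b and Cfb the tumors cover the widest range.

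Against the Dicer1+/D1693N oviducts alone the same 3 genes were called higher, at 1.93 ± 0.62 for C1qa (limma, adjusted p = 0.0492), 1.91 ± 0.56 for C1qb (limma, adjusted p = 0.0377) and 1.95 ± 0.56 for C1qc (limma, adjusted p = 0.0329). In that comparison 5.17% of all genes were called higher. There 4 of the 9 passed at an unadjusted p under 0.05, where 36.7% of all genes did, and limma-voom called 2. Against the 2 Dicer1+/+ oviducts alone none of the 9 was called, where 4.07% of all genes were called higher, although 3 passed at an unadjusted p under 0.05, where 31.3% of all genes did, and limma-voom called 0. The changes there were 1.76 for C1qa (limma, adjusted p = 0.122), 1.95 for C1qb (limma, adjusted p = 0.0688) and 1.87 for C1qc (limma, adjusted p = 0.0754). The 2 comparisons share the tumors.

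The chains kept close to fixed proportions in every library. Per exon kilobase of GENCODE M21, the ratio of C1qa to C1qb was 0.92 to 1.13 in tumors and 0.86 to 1.22 in oviducts. The ratio of C1qc to C1qb was 0.34 to 0.46 in tumors and 0.37 to 0.48 in oviducts. These ratios use the union of annotated exons, 1931 bases for C1qc against 1040 for C1qa and 1088 for C1qb, so the low C1qc ratio depends on that length. Over the 9 libraries the groups did not separate by either ratio.

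Against all 5 oviducts together, most of the listed macrophage markers rose beside the C1q genes. Of 15 listed macrophage markers 10 rose and 0 fell in tumors, where 6.53% of all genes were called higher and 12.1% lower. Their median log2 change was 1.61, where the median over all genes was -0.05. All 15 had reads in both groups. Lyz2, the lysozyme of myeloid cells, rose by 2.71 ± 0.50 (limma, adjusted p = 0.00228), and the lysosomal glycoprotein gene Cd68 by 2.16 ± 0.43 (limma, adjusted p = 0.00397). Csf1r, the receptor for the macrophage growth factor CSF1, was not called, at 0.88 ± 0.45 (limma, adjusted p = 0.166). Cd163, a scavenger receptor of tissue macrophages, had 2.9, 1.1, 13.5 and 713 normalized counts in tumors 1 to 4, against 49.1 to 69.7 in oviducts, so that tumors 1 to 3 were below every oviduct and tumor 4 above (-0.69 ± 0.97, limma, adjusted p = 0.631). Limma-voom called 7 of the 15 markers. Against the Dicer1+/D1693N oviducts alone 5 of the 15 were called higher, with a median change of 1.58, and limma-voom called 4. Against the Dicer1+/+ oviducts alone 4 were called higher, with a median change of 1.73, and limma-voom called 2. Of all genes 5.17% and 4.07% were called higher in these 2 comparisons.

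The 15 markers summed to 18536, 32542, 7542 and 53123 normalized counts in tumors 1 to 4 and to 3737 to 6569 in oviducts. Their order among the tumors was that of the C1q genes, and also that of C3 and of the neutrophil markers below. Leaving out 1 library at a time gave 6 to 13 markers called higher and 0 or 1 called lower. The mean log2 value of the C1q genes minus that of the markers was 2.20, 1.91, 1.14 and 1.56 in tumors 1 to 4 and 1.06 to 1.51 in oviducts. By that difference tumors 1 and 2 lay above the oviducts, tumor 4 only just above them (1.56 against at most 1.51) and tumor 3 among them. The marker mean includes Cd163, which was below every oviduct in tumors 1 to 3. The 10 neutrophil markers summed to 40742, 96993, 4721 and 105712 in tumors 1 to 4 and to 5687 to 25172 in oviducts. Of these 10 neutrophil markers 4 rose and 0 fell, 5 passed at an unadjusted p under 0.05 and limma-voom called 1. The count was 3 without tumor 2 and 7 without tumor 3. Of 10 lymphocyte markers 0 were called by limma, 0 at an unadjusted p under 0.05 and 0 by limma-voom. The part of macrophage or neutrophil content in the C1q result was not tested.

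**Figure D2:**
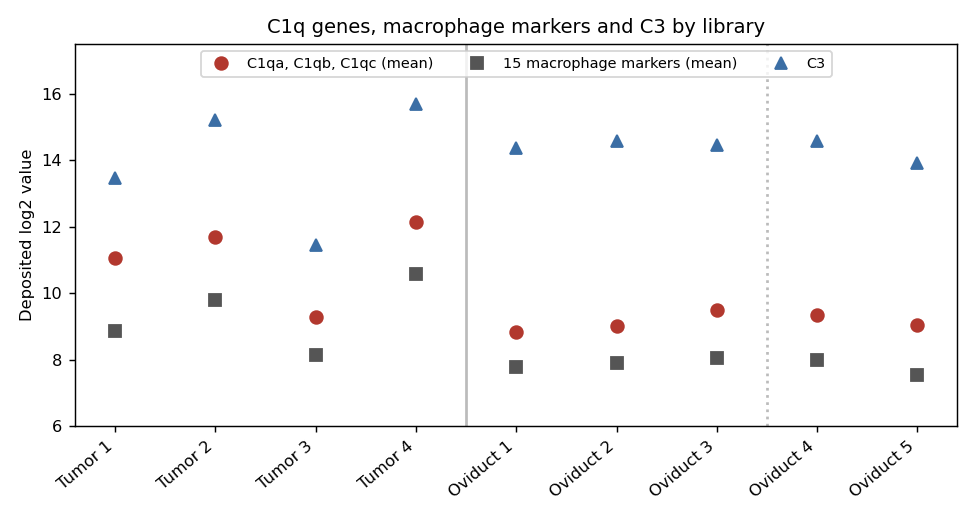
Deposited log2 values by library for the mean of C1qa, C1qb and C1qc (circles), the mean of 15 macrophage markers (squares) and C3 (triangles), with the tumors left of the solid line and Dicer1+/D1693N oviducts left of the dotted line. The C1q mean, the macrophage mean and C3 share their order over the 4 tumors. Relative to the oviducts, C3 lies below them in tumors 1 and 3 and above them in tumors 2 and 4.

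The genes with the profile nearest to that of C1q over the 9 libraries were Cd14, Slc11a1, Cd68, Tyrobp and Fcgr3. Likeness was the root mean square difference of log2 values, each gene centred on its mean, among 11200 genes with a mean log2 value of at least 7. It was 0.201 for Cd14, a lipopolysaccharide co-receptor, 0.210 for Slc11a1, a metal transporter of phagosomes, 0.221 for Cd68, 0.248 for Tyrobp, a signalling adaptor of myeloid receptors, and 0.262 for Fcgr3, an Fc receptor. Of these 5, Cd14, Cd68 and Tyrobp are also in the macrophage list. The median over those genes was 1.25. Of the other complement genes followed, C3ar1 was nearest at 0.607 and C4b farthest at 1.90 (log2 units).

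C3, C4b, C2 and Cfb were not called in either direction, and their tumor values reached both sides of the oviducts. All 4 lie on the minus strand of chromosome 17 (GRCm38), with C4b at chr17:34728380-34743882, Cfb at chr17:34856374-34862518, C2 at chr17:34862604-34898265 and C3 at chr17:57203970-57228136. C3, the protein on which all activation routes meet, had 11227, 37952, 2774 and 53112 normalized counts in tumors 1 to 4, against 21366, 24445, 22323, 24291 and 15532 in oviducts 1 to 5. Tumors 2 and 4 lay above every oviduct and tumors 1 and 3 below every oviduct. The means were 26270 ± 23300 in tumors and 21590 ± 3630 in oviducts (SD, n = 4 and n = 5), and the log2 change was -0.43 (95% interval -2.04 to 1.19, limma, adjusted p = 0.697). The mean of counts was higher in tumors, whereas the mean of log2 values was lower. Without tumor 3 the log2 change was 0.41 (limma, adjusted p = 0.533).

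C2, the serine protease of the classical convertase, had 234, 698, 54.0 and 835 normalized counts in the tumors, against 726, 767, 583, 471 and 438 in the oviducts. Tumors 1 and 3 were again below the oviducts, tumor 4 was above them and tumor 2 was among them. The log2 change was -0.88 (95% interval -2.24 to 0.48, limma, adjusted p = 0.307). C4b, the other component of that convertase, had 461, 778, 56.3 and 11827 in the tumors, against 1606, 2525, 1962, 1206 and 1065 in the oviducts. Here 3 tumors were below every oviduct and tumor 4 was above every oviduct.

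The log2 change of C4b over all libraries was -1.07 (95% interval -3.53 to 1.39, limma, adjusted p = 0.500). Without tumor 4, the library with the high fat-cell markers, it was called lower, at -2.39 (limma, adjusted p = 0.0165). Without tumor 3 it stood at 0.04 (limma, adjusted p = 0.978). Reads of C4b and of its near-identical copy C4a could be divided by the counting. C4a was listed at 9.5 to 20.4 normalized counts in tumors and 15.7 to 23.9 in oviducts, so the split is uncertain.

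Cfb, factor B, the protease of the alternative pathway convertase, had 646, 8123, 127 and 12523 normalized counts in the tumors, against 354, 562, 564, 396 and 838.5 in the oviducts. Tumors 2 and 4 were far above the oviducts, tumor 1 was among them and tumor 3 below. The log2 change was 1.72 (95% interval -0.75 to 4.20, limma, adjusted p = 0.270). Without tumor 3 the gene was called higher, at 2.92 (limma, adjusted p = 0.0217). With any 1 library left out the change was 0.78 to 2.92, with an adjusted p (limma) of up to 0.576. Cfb and C2 are neighbours on chromosome 17 with 85 bases between them, and the readthrough gene Gm20547, which is not in the table, shares 79.5% of the Cfb and 42.8% of the C2 exon bases, so their counts depend on how shared reads were assigned.

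The balance between Cfb and C2 separated the tumors from the oviducts. Per exon kilobase the ratio of Cfb to C2 was 3.78, 15.94, 3.23 and 20.56 in tumors 1 to 4, against 0.67, 1.00, 1.33, 1.15 and 2.63 in oviducts 1 to 5. Every tumor was above every oviduct, by a factor that differed between tumors. The nearest values were 2.63 in oviduct 5 and 3.23 in tumor 3. This ratio was singled out after its values were seen and was not tested. The share of other gene pairs whose ratio separates the groups was not computed. Like the counts, the ratio depends on how reads shared with Gm20547 were assigned. The ratio of C3 to C4b was 26.95, 54.03, 54.57 and 4.97 in the tumors and 10.72 to 22.31 in the oviducts, with tumor 4 below and the other tumors above. The ratio of C4b to C2 was 9.63 in tumor 4, against 0.71 to 1.34 in the other tumors and 1.51 to 2.29 in oviducts.

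**Figure D3:**
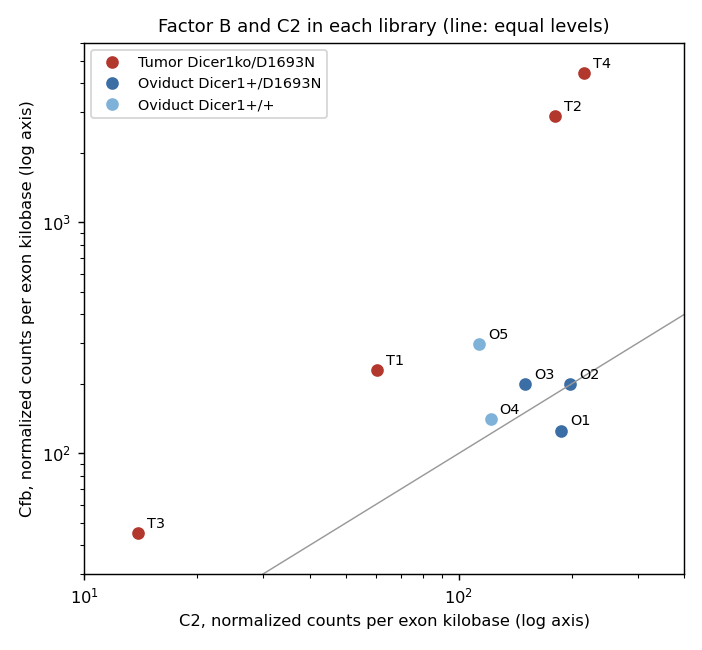
Normalized counts per exon kilobase (both axes log) of Cfb against C2 in each library, coloured by group (T, tumor; O, oviduct), with a line where both are equal. All 4 tumors lie above the line at ratios of 3.23 to 20.56, and the oviducts lie near it at 0.67 to 2.63.

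By profile C2 was the nearest to C3 of the other complement genes followed, at 0.352 by the measure above. The next was Serping1 at 0.752. The 2 profiles still differed: in tumor 2 C3 was 0.83 log2 units above its oviduct mean and C2 0.25 above its own. Of all genes outside the 9, the nearest to C3 were Cfi, which encodes the protease that inactivates C3b, at 0.218, Urah, a urate pathway hydrolase, at 0.328, H2-T23, a non-classical MHC class I gene, at 0.334, B4galnt1, a ganglioside synthase, at 0.354, and Ifi204, an interferon-inducible gene, at 0.380. The median was 1.23. Cfi had 214, 907, 72.1 and 1627 normalized counts in tumors 1 to 4, against 535, 609, 569, 631 and 522.5 in the oviducts, and its order among the tumors was that of C3. It was not called, at -0.48 (limma, adjusted p = 0.643).

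The interferon-response list, 11 measured genes, was highest in tumors 2 and 4 and lowest in tumor 3. It summed to 2282, 10209, 1907 and 6892 in tumors 1 to 4 and to 3709 to 6137 in oviducts. None of the 11 was called by limma, 3 passed at an unadjusted p under 0.05 and limma-voom called 0. The 6 measured liver markers summed to 11.7 to 109 in tumors and 7.8 to 113 in oviducts. The part of either list in the pattern of the convertase genes was not tested.

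Serping1, whose protein inactivates C1r and C1s, had nearly equal means in tumors and oviducts. The gene lies at chr2:84765387-84775444 (GRCm38, minus strand). It had 1933, 3415, 1516.5 and 5369 normalized counts in the tumors, against 3605.5, 3657, 2946, 2393.5 and 1608 in the oviducts. Tumor 4 was above every oviduct, tumor 3 was below, and tumors 1 and 2 were among them. The means were 3058 ± 1740 in tumors and 2842 ± 864 in oviducts (SD, n = 4 and n = 5), and the log2 change was -0.01 (95% interval -0.83 to 0.82, limma, adjusted p = 0.992). The interval allows a change of either sign by most of a log2 unit.

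C3ar1, the receptor through which C3a acts on myeloid cells, had its highest values in tumors 2 and 4. The gene lies at chr6:122847138-122856161 (GRCm38, minus strand). It had 104, 514, 124 and 877 normalized counts in the tumors, against 100.5, 87.6, 79.6, 109 and 58.1 in the oviducts. Tumors 2, 3 and 4 were above every oviduct and tumor 1 was among them. The means were 405 ± 367 in tumors and 87.0 ± 19.8 in oviducts (SD, n = 4 and n = 5), and the log2 change was 1.53 (95% interval 0.33 to 2.73, limma, adjusted p = 0.0543), which was not called. The call was gained without tumor 1 (1.96, limma, adjusted p = 0.0182), without tumor 3 (1.89, limma, adjusted p = 0.0243) and after quantile normalization (1.72, limma, adjusted p = 0.0248). With any 1 library left out the change was 1.01 to 1.96, with an adjusted p (limma) of up to 0.140. It was not called against the Dicer1+/D1693N oviducts alone (1.48, limma, adjusted p = 0.134) or the Dicer1+/+ oviducts alone (1.60, limma, adjusted p = 0.177). Limma-voom did not call it in any of these comparisons.

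The tumors kept nearly the same order in all 9 genes. Tumor 4 was the highest of the 9 libraries for 9 of 9 genes, where it was the highest for 15.2% of all genes. Tumor 2 was the second highest tumor for 9 of 9, for which the share over all genes was not computed. Tumor 3 was the lowest tumor for 8 of 9, where it was the lowest for 27.3% of all genes, and for C3ar1 the lowest was tumor 1.

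None of the 9 had all tumors above all oviducts, where 10.8% of all genes did, and none had all tumors below, where 16.8% did. The median change of the 9 was 1.53 on the log2 scale, where it was -0.05 over all genes. The range within tumors was widest for C4b, at 210-fold, and Cfb, at 98.4-fold, and narrowest for Serping1, at 3.54-fold. Within oviducts the highest over the lowest was 1.45 to 2.37 for every gene.

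The tumor SD on the log2 scale was 3.03 for Cfb and 3.01 for C4b, each larger than for 99.8% of genes. It was 1.93 for C3 (larger than for 98.0% of genes) and 0.81 for Serping1 (80.0%), and the median gene had 0.47 in tumors and 0.23 in oviducts. By that measure Serping1 was the least variable of the 9 between tumors.

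**Figure D4:**
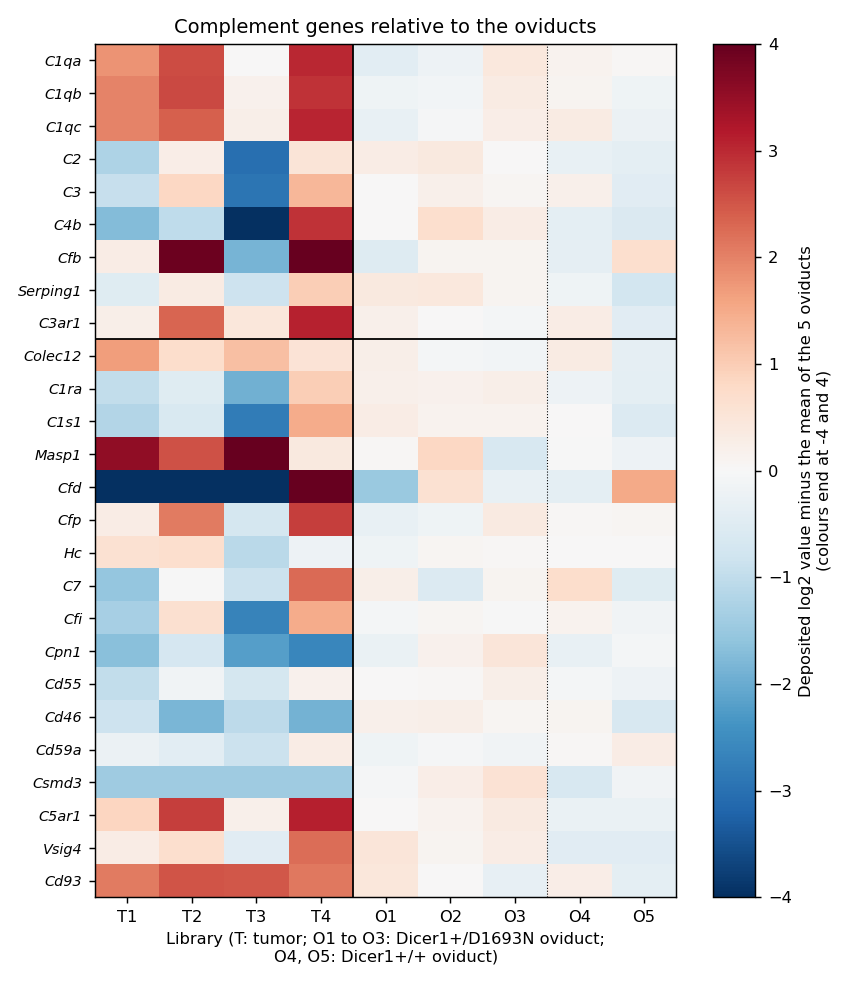
Deposited log2 value of each gene minus its mean over the 5 oviducts, for tumors (T1 to T4) and oviducts (O1 to O5), with the 9 genes above the solid line and the named pathway genes below it; red is higher, blue lower, and colours end at -4 and 4. Among the 9 genes T4 is red in all and T2 in all but C4b, and T3 is blue in C2, C3, C4b, Cfb and Serping1.

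Levels can be set against each other per exon kilobase. In tumors C3 averaged 5110 normalized counts per kilobase, C1qa 2800, C1qb 2710, Cfb 1900, Serping1 1320, C1qc 1110, C4b 576, C2 118 and C3ar1 94.0. Each neighbouring pair in that order overlapped between tumors. In oviducts the order was C3 at 4200, Serping1 1220, C1qa 592, C1qb 566, C4b 294, C1qc 232, Cfb 192, C2 154 and C3ar1 20.2. There C3 (3020 to 4750) was clear of Serping1 (691 to 1570), C1qb (491 to 712) of C4b (187 to 443), and C2 (113 to 198) of C3ar1 (13.5 to 25.4), while the other neighbours overlapped.

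The oviduct genotypes were compared next, with the Dicer1+/D1693N oviducts set against the Dicer1+/+ ones. None of the 9 genes was called by limma, where 0.0206% of all genes were, and limma-voom called 0. At an unadjusted p under 0.05, 0 of the 9 passed, where 2.75% of all genes did. C2 averaged 692 ± 96.6 in Dicer1+/D1693N oviducts and 454 ± 23.5 in Dicer1+/+ oviducts (SD, n = 3 and n = 2). C4b averaged 2031 ± 463 in Dicer1+/D1693N oviducts and 1135 ± 99.5 in Dicer1+/+ oviducts, and Serping1 3403 ± 396 in Dicer1+/D1693N oviducts and 2001 ± 556 in Dicer1+/+ oviducts. These 3 genes had every Dicer1+/D1693N library above every Dicer1+/+ library, as 16.3% of all genes did, and 0 of the 9 had the opposite order, as 15.7% of all genes did.

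The intervals of these genotype differences were wide, with a spread estimated over all 9 libraries, tumors included. They ran from -0.28 to 1.84 for Serping1, from -1.58 to 1.42 for C1qc and from -3.88 to 3.38 for Cfb on the log2 scale. Differences of several-fold in Cfb were therefore not detectable in this model, whose spread the tumors enter. The log2 SD of Cfb was 3.03 in tumors and 0.47 over the oviducts. A model of the oviducts alone was not fitted.

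Of 53 other complement genes listed, 46 were measured, of which 4 rose, 3 fell and 39 were not called; their median log2 change was -0.02. These shares, 8.70% higher and 6.52% lower, stand beside 6.53% higher and 12.1% lower over all genes, so the calls below describe single genes and not the pathway. Among 5 measured recognition genes 1 rose. Colec12, a scavenger receptor with a collectin head, had 2283, 1169, 1672 and 1044 normalized counts in tumors 1 to 4, against 544 to 890 in oviducts. All tumors were above all oviducts, and it rose by 1.03 ± 0.24 (limma, adjusted p = 0.00838), just past the minimum change. The change was under that minimum without tumor 1 (0.82), without tumor 3 (0.97) and without oviduct 5 (0.935), and after quantile normalization (0.96).

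Among 6 measured initiating proteases 1 rose, Masp1 of the lectin pathway. It had 653, 310, 1111 and 54.7 in tumors 1 to 4, against 17.9 to 81.6 in oviducts, and rose by 2.70 ± 0.67 (limma, adjusted p = 0.0123). Tumor 4, the highest library for the 9 genes, was the lowest tumor for Masp1 and lay among the oviducts. Limma-voom did not call it (adjusted p = 0.0677). The proteases that act with C1q were not called, at -0.61 ± 0.47 for C1ra (limma, adjusted p = 0.357) and -0.78 ± 0.66 for C1s1 (limma, adjusted p = 0.400). Among the tumors both were above the oviduct mean in tumor 4 alone, and without tumor 4 both were called lower, C1ra at -1.14 (limma, adjusted p = 0.0152) and C1s1 at -1.53 (limma, adjusted p = 0.0177).

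Of 9 measured receptors 2 rose, with 1 to 5 called higher when 1 library was left out. The 5 came without tumor 3, when the integrin genes Itgam, Itgax and Itgb2, whose products include complement receptors of leukocytes, were called as well. Cd93, a membrane protein of endothelial and myeloid cells once described as a C1q receptor, had 1374, 1849.9, 1795 and 1399 in tumors 1 to 4, against 227 to 429 in oviducts. The tumors were close to each other and all above the oviducts, and Cd93 rose by 2.30 ± 0.20 (limma, adjusted p = 1.84e-05). Of 10 endothelial markers 8 rose and 0 fell, and their part in the Cd93 result was not tested. C5ar1, the receptor for C5a, had 93.2, 409, 51.8 and 522 in the tumors, against 32.4 to 60.7 in oviducts, and rose by 1.74 ± 0.56 (limma, adjusted p = 0.0362).

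The C5ar1 call was lost without any 1 oviduct, without tumor 2 (limma, adjusted p = 0.100) and without tumor 4 (limma, adjusted p = 0.0719), and by limma-voom (adjusted p = 0.0826). Vsig4, a macrophage receptor for C3b, had 0 to 48.4 normalized counts in tumors and 0 to 4.5 in oviducts and was not called (limma, adjusted p = 0.292).

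Among 10 measured membrane regulators 2 fell and 0 rose. Cd46, a cofactor for C3b cleavage that in mice is known mainly from testis, had 116, 47.7, 94.6 and 45.2 in the tumors, against 257, 261, 232, 239 and 135 in the oviducts, and fell by 1.40 on the log2 scale (SE 0.29, limma, adjusted p = 0.00447). Csmd3, a large membrane protein with complement control modules, had no read in any tumor and 3.1 to 23.9 normalized counts in oviducts (limma, adjusted p = 0.00183). Against a floor of 3 counts per library, 3.41 normalized counts at most in a tumor, its mean was at least 3.6-fold lower in tumors. After quantile normalization its log2 change was -0.997, short of the minimum, and it was not called. Without tumor 1 the list gave 4 calls. Cd55, the decay-accelerating factor that dissociates convertases, was not called at -0.42 (limma, adjusted p = 0.187), nor was Cd59a, which blocks the membrane attack complex, at -0.30 (limma, adjusted p = 0.330).

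Of 7 measured fluid-phase regulators 1 fell and 0 rose. Cpn1, the catalytic subunit that trims C3a and C5a, had 19.4, 55.6, 9.0 and 4.2 normalized counts in the tumors, against 79.3, 115, 147, 78.6 and 93.8 in the oviducts, and fell by 1.79 on the log2 scale (SE 0.38, limma, adjusted p = 0.00512). All tumors were below all oviducts.

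The remaining alternative pathway genes were not called. Cfp, properdin, which stabilizes the alternative convertase, had 232, 839, 106 and 1365 in the tumors, against 144 to 243 in the oviducts, with tumors 2 and 4 far above them, and its change of 1.11 ± 0.60 did not pass (limma, adjusted p = 0.184). Without tumor 3 Cfp was called higher, at 1.71 (limma, adjusted p = 0.0191). With any 1 library left out its change was 0.56 to 1.71, with an adjusted p (limma) of up to 0.417. Cfd, factor D, which is made by fat cells and is in the fat-cell list too, had 0, 1.1, 0 and 49285 in the tumors, against 369.5 to 3108 in the oviducts (limma, adjusted p = 0.261). Without tumor 4 it was called lower, at -6.49 on the log2 scale (limma, adjusted p = 2.23e-05). The terminal components had few reads: Hc, which encodes C5, had 0 to 18.2 in tumors and 4.5 to 7.5 in oviducts, and C7 had 1.0 to 182 in tumors and 11.2 to 47.9 in oviducts. None of the 6 terminal genes was called by limma, 1 passed at an unadjusted p under 0.05 and limma-voom called 1.

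**Figure D5:**
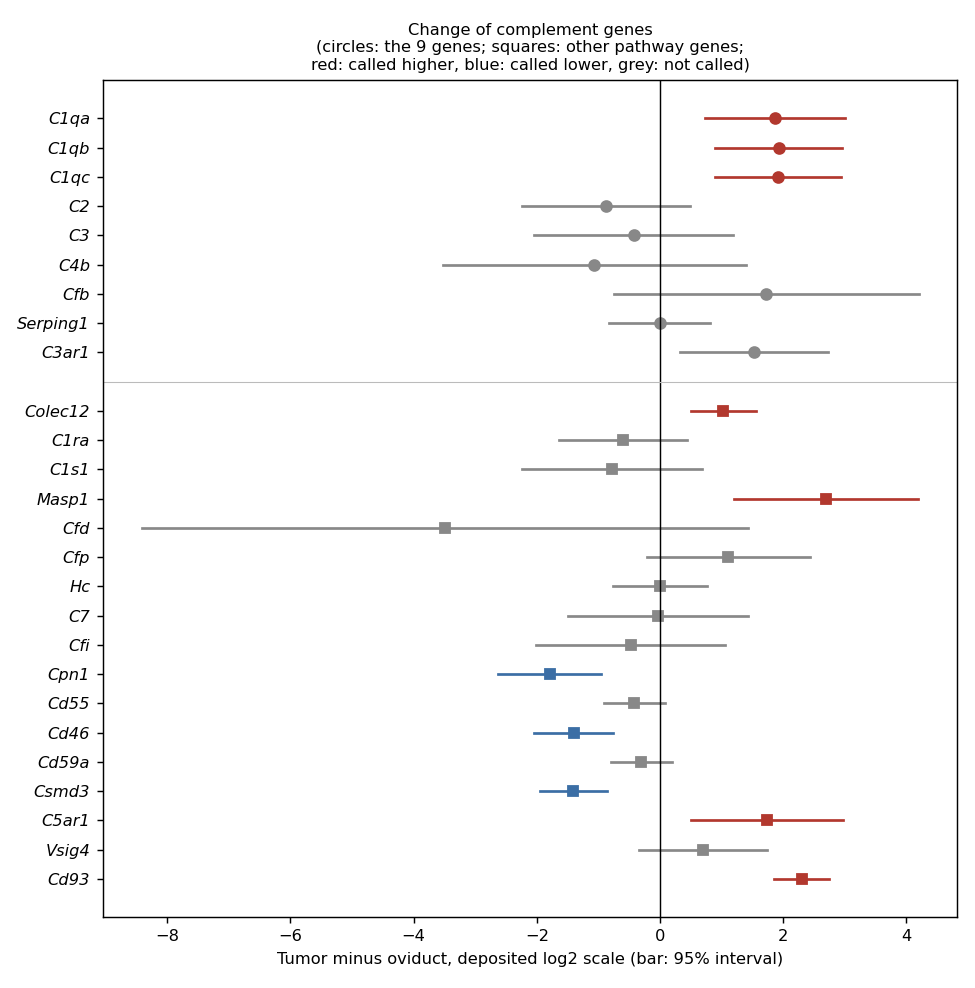
Log2 change in tumors relative to oviducts on the deposited scale, with 95% intervals, for the 9 complement genes (circles, top) and the named pathway genes (squares); red was called higher, blue called lower and grey not called. C1qa, C1qb and C1qc lie close to each other at 1.86 to 1.92 with intervals above 0, whereas the intervals of C4b and Cfb span 0.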

How the data were processed

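RNA carrying poly-A was sequenced from 4 tumors and 5 oviducts. Per the submitters' processing notes, FastQC 0.11.5, STAR 2.5.3a and HTSeq were used with GRCm38 (mm10); the annotation, the strand setting and the transformation are not given in the sources used here. The deposited values are log2, and the form of the authors' transformation was worked out from them: it fits a variance-stabilizing transformation with a floor of 3.427, which when inverted gave whole reads for 100% of values (tolerance 0.05 reads). From this came reads and normalized counts. A log2 change on this scale understates changes of genes with few reads. Groups were then compared on the deposited log2 values by the two-sided moderated test of limma 3.58.1 (R 4.3.3), whose prior variance followed a trend, and p-values were adjusted by Benjamini-Hochberg for 19435 genes. The model had 2 groups for tumor against oviduct and 3 groups sharing 1 spread for the other comparisons. The fit was tested on simulated data. Limma-voom on the recovered reads, quantile normalization, log2(normalized count + 1), a filter at a mean log2 value of 6, no minimum change, a replicate block, the Dicer1+/D1693N or the Dicer1+/+ oviducts alone as controls, and leaving out each library were tried. The 9 genes and all lists were chosen with earlier results of these data known. Pathway genes were named if called, and 12 were chosen to be named whatever their result, of which 1 is not reported here. Coordinates and exon lengths are from GENCODE M21. Floors cover counting error only.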

Additional observations from a re-analysis of the deposited data

Results flagged for a closer look

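In 54 gene groups of 4 or 5 libraries, 2 had a single library far from the rest, where chance gives about 1 in 20. The 2 are thus no more than that rate would give. The tumor group of Csmd3, without a read, is among the 54 but could not be flagged. Cfd had 49285 normalized counts in tumor 4 and at most 1.1 in the other tumors. The same library held 5428 normalized counts of Adipoq, the fat-cell hormone adiponectin, which had 0 in the other tumors. Cd46 had 135 normalized counts in oviduct 5, where the other oviducts had 232 to 261. Both are given as values, and what set these libraries apart was not tested.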

How the results depend on the processing

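Of the 9 genes, 3 were called between tumors and oviducts. The count was 2 to 5 when 1 library at a time was left out, and 0 with the Dicer1+/+ oviducts alone as controls, which leaves 2 control libraries. The 46 pathway genes gave 7 calls, 5 to 10 when 1 library was left out, and 2 with the Dicer1+/+ oviducts alone. Over all genes 3625 were called, 6051 with no minimum change, and 3250 to 4170 when 1 library was left out. With 1 library left out the log2 change was -1.01 to 0.41 for C3, -2.39 to 0.04 for C4b and -0.33 to 0.27 for Serping1, and each changed sign in at least 1 case; Serping1 stood at 0.46 with the Dicer1+/+ oviducts alone. The cause was not tested. Between the oviduct genotypes 4 of all genes were called, 0 with log2(normalized count + 1), 2 with limma-voom and 0 to 4 when 1 library was left out, and 0 of the 9 in each of these. There, with 1 library left out, the changes were -0.42 to 0.00 (0.003) for C1qa, -0.12 to 0.17 for C1qb, -0.37 to 0.20 for C1qc, -0.10 to 0.55 for C3, -0.25 to 0.49 for C3ar1 and -0.77 to 0.27 for Cfb. After quantile normalization the median change over all genes was 0.08, against -0.05 without it.

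Same-numbered tumors and oviducts deviated together at correlations of 0.117, 0.061, -0.089 and 0.006, and tumor 1 alone correlated best with its own number, so the numbers were not taken to pair them. With a replicate block 3230 of all genes, 2 of the 9 and 5 pathway genes were called, and C1qa, at 1.88, was not called (limma, adjusted p = 0.0501). With 4 tumors that differ widely, the 95% intervals of C2, C3, C4b and Cfb are wide and include 0.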
